A study of Danio rerio with 16 samples.

Results

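The genes described here are those that copy DNA and drive cells through division. They were chosen by symbol, as every gene whose zebrafish symbol names an MCM, ORC, GINS, RFC, CENP, cyclin A, B, D or E, DNA polymerase alpha, delta or epsilon, primase, ribonucleotide reductase, Aurora, Polo or spindle checkpoint gene, or pcna, cdk1, cdk2, cdk4, cdk6, cdc6, cdc7, cdc20, a cdc25, cdc45, top2a or mki67. No row carried the symbol cdc20. The table of names used here gave such a symbol to 99 gene identifiers, and 88 of these, with 84 distinct symbols, were rows of the files. Of these, 83 rows with 80 distinct symbols reached 1 RPKM in 2 or more of 16 libraries and are the genes described, out of 14758 genes that passed the same filter. RPKM, the authors' unit, scales the reads of a gene to the length of its model and to the depth of the library, so levels can be compared between genes. The 5 rows that did not pass were ccna1, ccnd3, mad2l2, mcm3l and plk2 (ENSDARG00000090752). The highest of these was mad2l2, at up to 1.06 RPKM, and the genes nearest to the filter on the passing side were cdk6, ccnd2 (ENSDARG00000070408) and cenpu, whose second-highest libraries were at 1.06, 1.22 and 1.29 RPKM.

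A cell copies its genome by loading the MCM helicase onto origins with the origin recognition complex and cdc6, turning the helicase on with cdc45, GINS and mcm10, and then synthesising DNA with primase, polymerases and the sliding clamp encoded by pcna, on nucleotides made by ribonucleotide reductase. Cyclins bind cyclin-dependent kinases to order these steps, and the spindle checkpoint holds chromosome separation until kinetochores, built on centromere proteins, are attached. Early zebrafish embryos divide very fast on maternal supplies, and cycles lengthen through gastrulation and somite formation.

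Each library was made from the messenger RNA of 40 pooled whole embryos, collected at bud, the end of gastrulation, or at 6-somites, early in the segmentation period. Morphants had received morpholinos against the transcription factor Gata5, against Gata6, or against both (Gata5/6 morphants), and WT embryos were the comparison at each stage, with 2 libraries in each of the 8 groups. The study's title places them in the specification of heart muscle progenitors. Morpholinos act on splicing or translation and can leave the amount of the targeted mRNA as it was, and the labels give neither doses nor clutches nor whether WT embryos were injected.

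Depth was 19.7 to 30.8 M reads per library (M standing for mega), with a median of 28.5 M. gata5 mRNA was 46.3 and 52.9 RPKM in WT at bud, 114 and 106 in Gata5 morphants and 158 and 161 in Gata5/6 morphants, a difference that is no check of a morpholino's effect on protein. Libraries of the same group differed more at bud than at 6-somites: the SD over genes of the log2 difference between replicates was 0.341 to 0.475 at bud and 0.183 to 0.228 at 6-somites. Because limma was fitted to all 16 libraries with a shared spread, its errors lie under the bud libraries' own spread and over that of the 6-somites libraries, and results from each stage's libraries alone are given beside many of them. Whole-embryo markers of enveloping layer (krt4), neural plate (sox3, sox19a), notochord (noto), somites (myod1, myf5), hatching gland (he1.1, ctslb) and germ cells (nanos3, ddx4) were present in all libraries. In whole embryos, fewer cells of a type and less RNA per cell cannot be told apart.

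These genes were expressed well above the typical gene. Their median level, as the mean RPKM over the 16 libraries, was 15.3 against 5.22 for all genes that passed the filter, and ranged from 0.647 (ccnd2, ENSDARG00000070408) to 475 (pcna). Means were above 100 RPKM for 7 genes and under 10 RPKM for 32. The highest genes after pcna were the helicase subunits mcm5 with a mean of 177 RPKM and mcm6 (ENSDARG00000057683) with 158, then mki67 with 122, ccna2 with 115, ccnb1 with 113 and bub3 with 103. mki67 encodes the proliferation marker Ki-67, ccna2 the cyclin A of dividing somatic cells, and bub3 a spindle checkpoint protein bound to kinetochores. In the other roles the highest means were 86.1 for aurkb, a kinase of the chromosomal passenger complex, 59.0 for rrm1, the large subunit of ribonucleotide reductase, 56.9 for pole3, an accessory subunit of polymerase epsilon, 51.3 for cdc6, 29.9 for cenpe, a kinetochore motor, and 24.4 for gins1. The symbol rule also took aurkaip1, at 37.5 RPKM, which encodes a mitochondrial ribosome protein, as well as cdc73 and mcm3ap, whose main roles lie in transcription and mRNA export. Between the highest and the lowest library, 68 of the 83 genes differed by more than 1.5-fold. Replicates of a group differed by more than 1.5-fold in at least 1 group for 20 genes, and by more than 2-fold for 5: mcm3, cdc25d, cenph and both rows named rrm2.

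From bud to 6-somites in WT embryos, the mitotic cyclin genes ccna2, ccnb1 and ccnb2 and the origin gene cdc6 were among those that fell, and both ccnd2 rows and the polymerase delta genes pold1, pold2 and pold4 among those that rose. With limma and Benjamini-Hochberg adjustment over all genes, 22 of the 83 genes were called, 11 higher and 11 lower, against 29.9% of all genes tested in this comparison. A share of 26.5% was thus near the background. By direction, 13.3% of the 83 were higher, against 20.3% of all genes, and 13.3% lower, against 9.56%. The median log2 change of the 83 genes was -0.09, against 0.08 for all genes tested. When libraries were scaled by the median of ratios in place of the authors' scaling, 10 of these genes were called higher (12.05%, against 17.1% of all genes) and 21 lower (25.3%, against 14.7%), and the median over all genes moved to -0.01.

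D-type cyclins start the cell cycle in response to growth signals by activating cdk4 and cdk6. ccnd2 (ENSDARG00000051748) was at 4.20 and 3.21 RPKM in WT at bud and at 9.33 and 8.56 in WT at 6-somites (log2 change 1.08 ± 0.18 (SE), adjusted p = 0.00090). The second row named ccnd2 (ENSDARG00000070408) was at 0.226 and 0.173 RPKM at bud and 0.931 and 1.22 at 6-somites (log2 change 0.79 ± 0.12 (SE), adjusted p = 0.00047). Both were therefore higher at 6-somites with no overlap, and cdk6 also rose (log2 change 0.46 ± 0.12 (SE), adjusted p = 0.011). The second ccnd2 row reached 1 RPKM only in 6-somites libraries. It thus passed the filter through the stage where it was higher, and its rise is not independent of that choice. Reads may be split between rows that share a symbol, so which copy changed is uncertain. The sum of both ccnd2 rows ranged from 2.42 to 10.3 RPKM over all libraries.

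Polymerase delta extends DNA behind the fork. Its catalytic subunit gene pold1 (ENSDARG00000027689) was at 15.8 and 12.03 RPKM in WT at bud and 26.04 and 23.2 at 6-somites (log2 change 0.79 ± 0.14 (SE), adjusted p = 0.0015). The subunit genes pold2 (log2 change 0.68, adjusted p = 0.0011) and pold4 (0.46, 0.038) rose as well, while pold3 did not pass (0.19, 0.60). plk2 (ENSDARG00000019130), a Polo-like kinase gene, was at 0.981 and 1.40 RPKM at bud and 2.42 and 2.89 at 6-somites (log2 change 0.74 ± 0.15 (SE), adjusted p = 0.0032). cenpo (ENSDARG00000075619), of the constitutive centromere complex, was at 2.45 and 1.74 RPKM at bud and 4.12 and 4.11 at 6-somites (log2 change 0.73 ± 0.15 (SE), adjusted p = 0.0035). The other genes that rose were orc5 of the origin recognition complex (0.66, 0.010), the clamp loader gene rfc1 (0.46, 0.013) and cenpp (0.45, 0.020).

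Among the called genes the steepest fall was that of cdc25d (ENSDARG00000075599), of the family of phosphatases that activate cyclin-dependent kinases, from 1.42 and 2.34 RPKM at bud to 0.366 and 0.404 at 6-somites (log2 change -1.04 ± 0.19 (SE), adjusted p = 0.0021). cdc25d passed the filter through the bud libraries, the stage where it was higher, so its fall is not independent of that choice. The lower-level row named mcm6 (ENSDARG00000033231) was at 2.90 and 3.49 RPKM at bud and 1.66 and 1.74 at 6-somites (log2 change -0.63 ± 0.16 (SE), adjusted p = 0.013), whereas the abundant mcm6 row (ENSDARG00000057683) was at 149 and 159 and 163 and 153 RPKM (log2 change 0.04 ± 0.14 (SE), adjusted p = 0.84). The B-type cyclins that drive entry into mitosis fell: ccnb2 (ENSDARG00000036180) was at 15.7 and 16.3 RPKM at bud and 11.2 and 10.9 at 6-somites (log2 change -0.49 ± 0.09 (SE), adjusted p = 0.0013), and ccnb1 changed by -0.44 (adjusted p = 0.0076). In neither cyclin did the stages overlap. cenpi, a centromere gene, was at 20.2 and 24.7 RPKM at bud and 15.5 and 16.4 at 6-somites (log2 change -0.46 ± 0.11 (SE), adjusted p = 0.0086). The origin licensing gene cdc6 (ENSDARG00000009942) was at 50.4 and 55.7 RPKM at bud and 36.5 and 40.8 at 6-somites (log2 change -0.45 ± 0.13 (SE), adjusted p = 0.022). Further falls were called for ccna2 (-0.44, 0.014), the checkpoint gene mad2l1 (-0.43, 0.010), the mitotic kinase gene aurka (-0.42, 0.016), pole3 (-0.39, 0.035) and aurkaip1 (-0.29, 0.042). Among the most abundant genes pcna, mcm5 and mki67 did not pass, with log2 changes of -0.10 ± 0.15 for pcna, -0.07 ± 0.11 for mcm5 and -0.002 ± 0.22 for mki67. Leaving out 1 WT library at a time gave fewer called genes, and the share called over all genes fell as well. The fewest were called without WT bud replicate 2 or WT 6-somites replicate 1. Each time the share of these genes called stayed below that of all genes, as it was with all libraries.

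**Figure D1:**
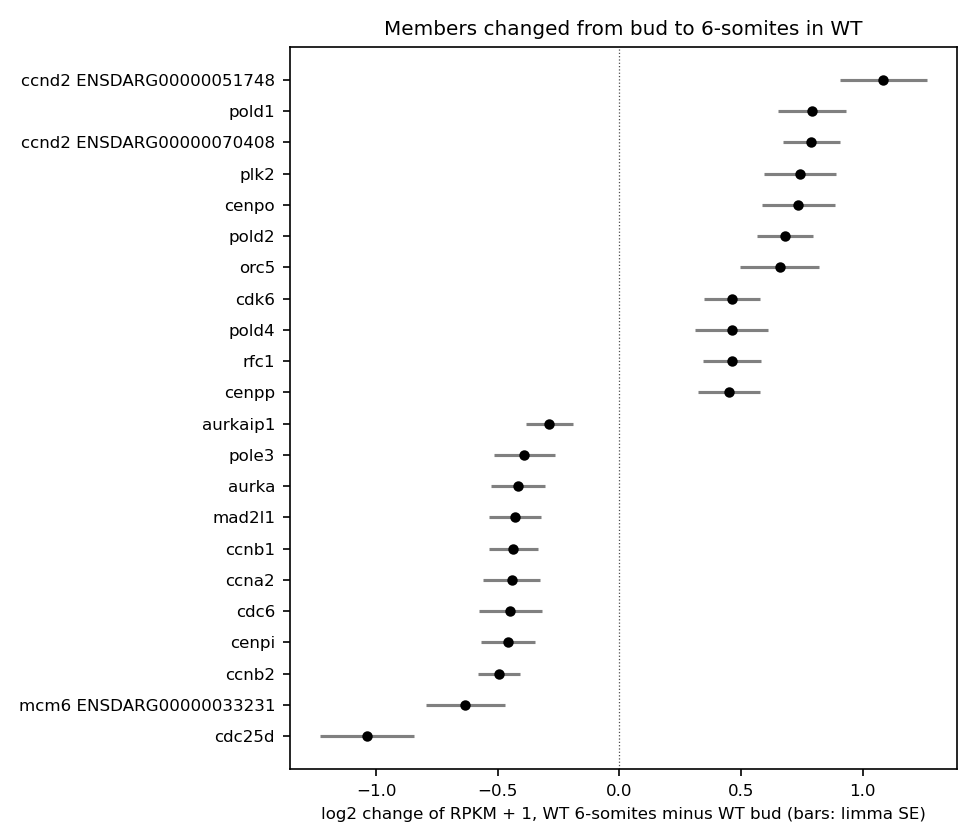
Log2 change of RPKM + 1 from WT bud to WT 6-somites (x axis) for the 22 called replication and cell cycle genes (y axis, gene symbols, with identifiers for symbols on more than 1 row). Points are limma estimates and bars are SE. The 11 rises run from cenpp to ccnd2 at 1.09, and the 11 falls from aurkaip1 to cdc25d at -1.04.

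At bud, Gata6 morphants had less mRNA of the sliding clamp pcna, of ribonucleotide reductase rrm1, of the spindle checkpoint genes bub1ba and ttk and of the centromere gene cenpw than WT, and more of the lower-level mcm6 row. These were the 6 genes called by limma among the 83, 1 higher and 5 lower, against 1.63% of all genes tested. The share of called genes was 7.23%. Both Gata6 morphant libraries lay below both WT libraries for 30 of the 83 genes (36.1%, against 18.7% of all genes) and above them for 5 (6.02%, against 20.0%). The median log2 change was -0.11, with 0.002 for all genes.

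pcna (ENSDARG00000054155) encodes the ring that holds polymerases on DNA. It was at 618 and 562 RPKM in WT at bud, 582 and 531 in Gata5 morphants, 282 and 395 in Gata6 morphants and 367 and 401 in Gata5/6 morphants. At 6-somites it was at 529 and 575 RPKM in WT, 508 and 542 in Gata5 morphants, 314 and 370.1 in Gata6 morphants and 503 and 515 in Gata5/6 morphants. The Gata6 morphant libraries were thus the lowest at 6-somites, and at bud both they and the Gata5/6 morphant libraries lay below all WT and Gata5 morphant libraries. Against WT, pcna fell in Gata6 morphants at bud (log2 change -0.82 ± 0.15 (SE), adjusted p = 0.025), but the differences in Gata5/6 morphants at bud (log2 change -0.62 ± 0.15 (SE), adjusted p = 0.073) and in Gata6 morphants at 6-somites (log2 change -0.69 ± 0.15 (SE), adjusted p = 0.093) missed the threshold. In the fit of the 6-somites libraries alone, the latter was called (adjusted p = 0.010).

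rrm1 (ENSDARG00000014017), which makes deoxyribonucleotides together with a small subunit, had much the same order of libraries. It was at 63.9 and 67.9 RPKM in WT at bud, 77.5 and 70.2 in Gata5 morphants, 31.3 and 38.1 in Gata6 morphants and 38.2 and 56.7 in Gata5/6 morphants. At 6-somites the values were 66.1 and 68.9 RPKM in WT, 68.6 and 72.9 in Gata5 morphants, 42.3 and 47.7 in Gata6 morphants and 65.8 and 68.8 in Gata5/6 morphants. Gata6 morphants were lowest at both stages, without overlap with WT. The fall passed at bud (log2 change -0.91 ± 0.16 (SE), adjusted p = 0.021) and not at 6-somites (log2 change -0.58 ± 0.16 (SE), adjusted p = 0.20), where the fit of that stage alone called it (adjusted p = 0.0099).

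bub1ba (ENSDARG00000078825), 1 of 2 genes here named after the checkpoint kinase gene BUB1B, was at 5.44 and 4.39 RPKM in WT at bud, 4.63 and 4.996 in Gata5 morphants, 2.70 and 2.66 in Gata6 morphants and 3.58 and 3.58 in Gata5/6 morphants. Its 6-somites libraries were at 4.81 and 4.50 RPKM in WT, 4.08 and 4.40 in Gata5 morphants, 2.33 and 2.77 in Gata6 morphants and 4.11 and 4.02 in Gata5/6 morphants. It was the only gene of the 83 called in Gata6 morphants at both stages, with -0.68 ± 0.11 at bud (adjusted p = 0.016) and -0.67 ± 0.11 at 6-somites (adjusted p = 0.029). With a replicate block in the fit the 6-somites call was lost. The bud call held without any 1 of its 4 libraries, with adjusted p from 0.0086 to 0.049. The 6-somites call was lost without any 1 of them, with adjusted p from 0.16 to 0.38. The other, bub1bb (ENSDARG00000074927) was at 20.4 and 26.5 RPKM in WT at bud and 16.9 and 20.95 in Gata6 morphants, which overlap (log2 change -0.29 ± 0.15 (SE), adjusted p = 0.33). At 6-somites bub1bb was at 17.3 and 17.3 RPKM in WT, 22.1 and 21.8 in Gata5 morphants, 16.8 and 16.3 in Gata6 morphants and 21.6 and 20.3 in Gata5/6 morphants.

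ttk (ENSDARG00000041361), the checkpoint kinase Mps1, was at 12.5 and 11.7 RPKM in WT at bud, 9.67 and 11.5 in Gata5 morphants, 8.61 and 8.63 in Gata6 morphants and 9.84 and 10.4 in Gata5/6 morphants (log2 change -0.44 ± 0.10 (SE), adjusted p = 0.048 for Gata6 morphants). At 6-somites it was at 10.8 and 10.7 RPKM in WT, 11.3 and 11.6 in Gata5 morphants, 8.84 and 8.29 in Gata6 morphants and 11.5 and 10.9 in Gata5/6 morphants. Gata6 morphants again had the lowest libraries of each stage. cenpw (ENSDARG00000092136), a centromere protein with a histone fold, was at 17.1 and 17.8 RPKM in WT at bud, 16.8 and 17.2 in Gata5 morphants, 12.9 and 11.2 in Gata6 morphants and 17.2 and 15.6 in Gata5/6 morphants (log2 change -0.50 ± 0.10 (SE), adjusted p = 0.031 for Gata6 morphants). At 6-somites cenpw was at 14.02 and 14.3 RPKM in WT, 14.3 and 15.8 in Gata5 morphants, 12.6 and 12.7 in Gata6 morphants and 15.4 and 14.2 in Gata5/6 morphants. For all 6 genes of the spindle checkpoint the log2 change in Gata6 morphants was below 0 at both stages, with medians of -0.34 at bud and -0.17 at 6-somites, and at bud 2 of the 6 passed. This lean was not particular to the checkpoint. At 6-somites 11 of 12 cyclin, CDK and CDC25 genes, 12 of 15 centromere genes and 5 of 6 Aurora and Polo genes (median -0.19) were also below 0. At bud 8, 11 and 4 genes of these roles were below 0. Of the 7 helicase activation genes 4 were above 0 and 3 below at 6-somites, and 2 above and 5 below at bud. The median over all genes was -0.025 at 6-somites and 0.002 at bud, and the share of all genes below 0 was not computed.

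The gene that rose in Gata6 morphants at bud was the lower-level row named mcm6 (ENSDARG00000033231). Its libraries were at 2.90 and 3.49 RPKM in WT, 3.36 and 2.50 in Gata5 morphants, 5.76 and 7.39 in Gata6 morphants and 5.50 and 3.83 in Gata5/6 morphants (log2 change 0.85 ± 0.16 (SE), adjusted p = 0.028 for Gata6 morphants). At 6-somites they were at 1.66 and 1.74 RPKM in WT, 1.56 and 1.52 in Gata5 morphants, 2.33 and 2.19 in Gata6 morphants and 1.94 and 1.64 in Gata5/6 morphants. The abundant mcm6 row (ENSDARG00000057683), a subunit of the replicative helicase, was at 143 and 183 RPKM in Gata6 morphants at bud and overlapped WT. The sum of both rows lay between 132 and 197 RPKM in every library.

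The Gata6 calls at bud depended on single libraries. Without Gata6 morphant replicate 1, 19 of the 83 genes were called (22.9%), while the share over all genes also rose, to 15.1%. Fewer than with all libraries were called without Gata6 replicate 2 or without WT replicate 1, although the share over all genes rose. Fewer were also called without WT replicate 2, where the share over all genes fell. When bud libraries were fitted by themselves limma called none of the 83 and none of all genes in Gata6 morphants, with adjusted p from 0.33 to 0.47 for the 6. By p below 0.05 before adjustment, 1 gene was higher and 14 lower there, against 2 higher (2.41% of the 83 against 9.77% of all genes) and 22 lower (26.5% of the 83 against 9.60% of all genes) in the fit of all libraries. The share of all genes with such a p was not computed for the fit of bud libraries by themselves. Without a filter on low values 3 were called (3.61%, against 0.725% of all genes).

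A list of p53 response genes, whose symbols include mdm2, cdkn1a and tp53inp1, had 14 genes tested and none listed at 0. Its summed level at bud was 256 and 272 RPKM in WT, 248 and 312 in Gata5 morphants, 569 and 369.7 in Gata6 morphants and 434 and 268 in Gata5/6 morphants. In Gata6 morphants 1 of the 14 passed (7.14%, against 1.63% of all genes), and the median log2 change was 1.28. The gene was tp53inp1 (limma, log2 change 1.25 ± 0.28 (SE), adjusted p = 0.049). This call was lost when bud libraries were fitted by themselves (adjusted p = 0.42). By p below 0.05 before adjustment 10 of the 14 were higher, a share of 71.4%, against 9.77% of all genes. mdm2, the feedback inhibitor of p53, was at 3.32 and 2.41 RPKM in WT at bud, 2.72 and 3.57 in Gata5 morphants, 16.1 and 5.18 in Gata6 morphants and 8.31 and 3.23 in Gata5/6 morphants, so replicate 1 was the higher in the Gata6 and Gata5/6 morphants. Without these replicate 1 libraries of Gata6 and Gata5/6 morphants together, an alternative chosen after seeing the data, 20 of the 83 genes were called in Gata6 morphants at bud (24.1%, against 17.9% of all genes under the same setting). At 6-somites the summed list stood at 282 and 289 RPKM in WT, 431 and 429 in Gata5 morphants, 398 and 401 in Gata6 morphants and 323 and 352 in Gata5/6 morphants. Gata5 morphants were above Gata6 morphants in this sum. By p below 0.05 before adjustment 11 of the 14 were higher in Gata5 morphants (78.6%, against 6.77% of all genes). In Gata6 morphants 5 were higher (35.7%, against 3.84%). The median log2 changes against WT were 1.02 and 0.77. With limma 1 of the 14 was called in Gata5 morphants (7.14%, against 0.474% of all genes) and 0 in Gata6 morphants (against 0.339%). The gene was sesn2 (log2 change 0.79 ± 0.13 (SE), adjusted p = 0.030). In Gata5/6 morphants 1 was called as well (7.14%, against 3.80%), sesn3 (log2 change 0.95 ± 0.17 (SE), adjusted p = 0.0099). Single genes of the list differed. In Gata5 and Gata6 morphants mdm2 was at 9.05 and 7.35 against 8.56 and 6.44 RPKM, which overlap. tp53inp1 was at 12.2 and 11.4 against 6.75 and 7.21 RPKM. btg2, of the same list, was at 120 and 124 against 98.2 and 114 RPKM, below WT at 138 and 132. The pcna libraries of Gata5 morphants overlapped those of WT. The part of the p53 response in these results was not tested.

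**Figure D2:**
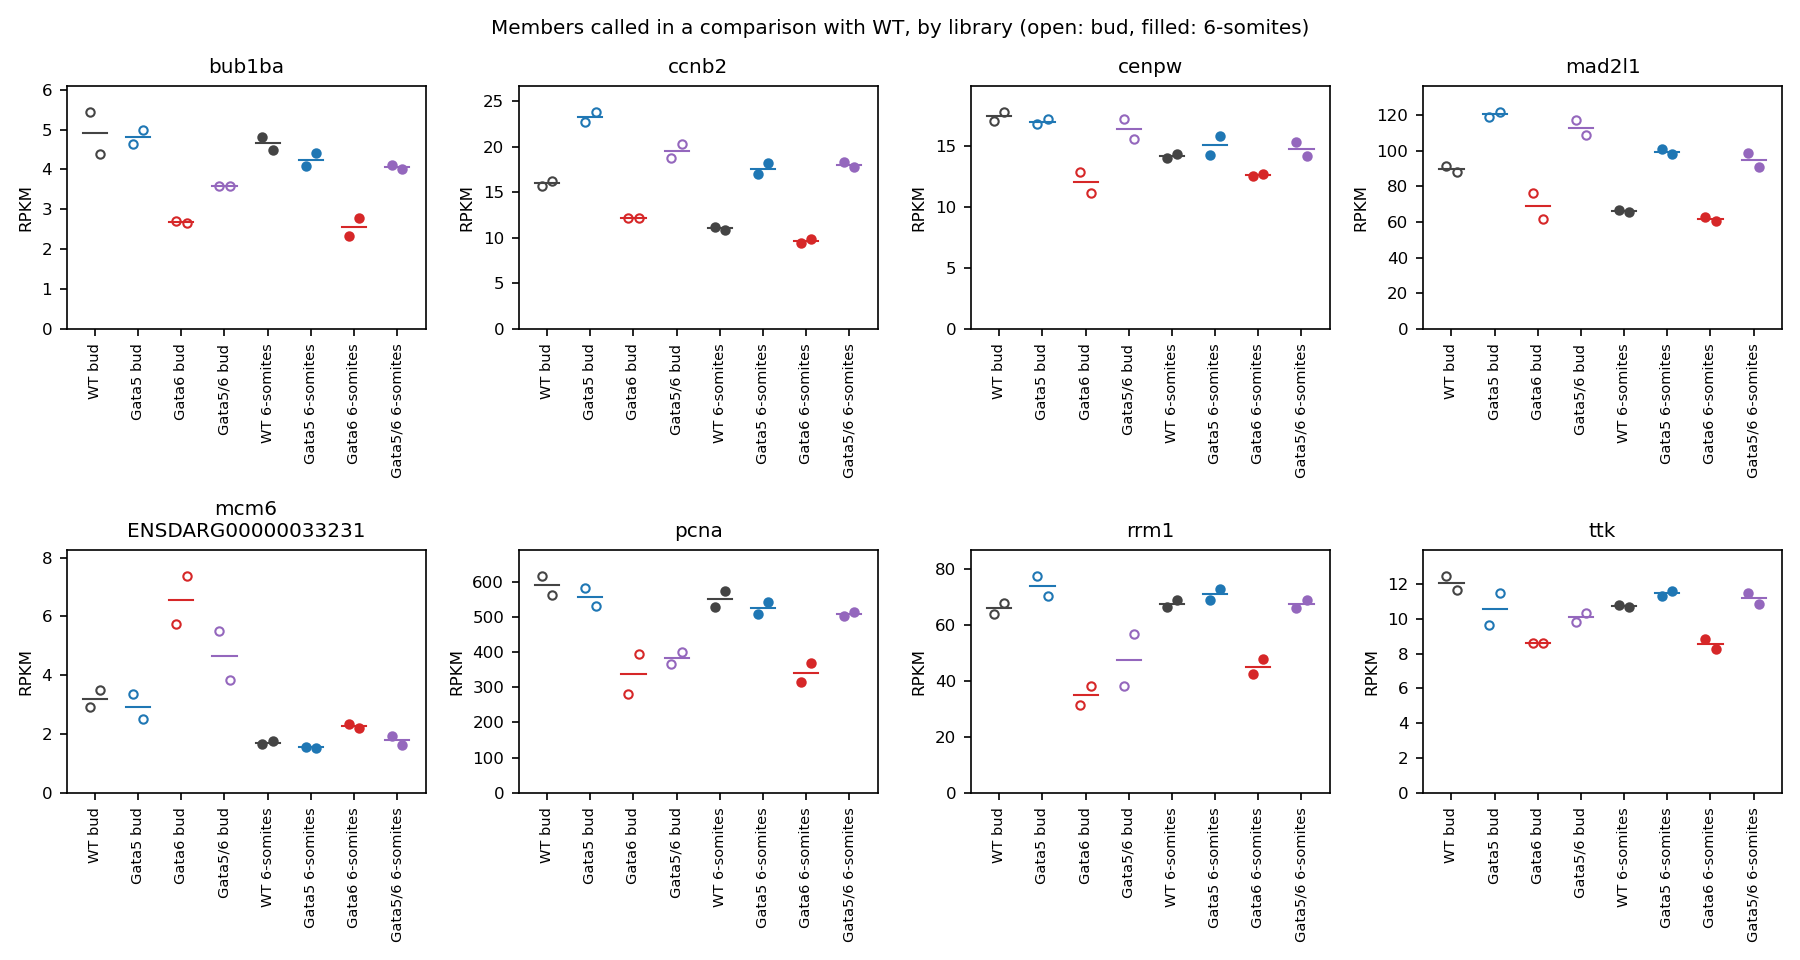
RPKM in each of the 16 libraries (y axis, linear from 0) for the 8 replication and cell cycle genes called against WT in any comparison, by group (x axis). Points are libraries, open at bud and filled at 6-somites, and lines are group means. Gata6 morphants (red) were lowest for pcna, rrm1, bub1ba and ttk by mean at both stages, and Gata5 and Gata5/6 morphants were above WT for ccnb2 and mad2l1.

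At 6-somites, 1 gene passed the same test in Gata6 morphants. bub1ba was called, against 0.339% of all genes tested, which is 1.20% of the 83 genes. Both Gata6 morphant libraries lay below both WT libraries for 36 genes (43.4%, against 30.0% of all genes) and above them for 8 (9.64%, against 20.9%). The fit of the 6-somites libraries alone called 5 genes lower (6.02%, against 2.97% of all genes) and 1 higher (1.20%, against 3.31%). Those lower were pcna, rrm1, bub1ba, ttk and cdk1, the kinase of mitotic entry. cdk1 was at 69.6 and 71.3 RPKM in WT at 6-somites and 54.7 and 56.3 in Gata6 morphants (adjusted p = 0.022 in the fit of that stage with limma). The gene called higher was rrm2b (ENSDARG00000033367), the small ribonucleotide reductase subunit that p53 induces in mammals. It was at 35.4 and 37.5 RPKM in WT, 46.8 and 38.2 in Gata5 morphants, 51.5 and 48.99 in Gata6 morphants and 37.7 and 39.6 in Gata5/6 morphants (adjusted p = 0.041 in that fit for Gata6 morphants). At bud rrm2b was at 34.5 and 25.01 RPKM in WT, 28.6 and 30.5 in Gata5 morphants, 47.6 and 30.2 in Gata6 morphants and 26.1 and 23.4 in Gata5/6 morphants. At 6-somites the large subunit was thus lowest and this small subunit highest in the same libraries.

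In Gata5 morphants, ccnb2 and the checkpoint gene mad2l1 were higher than in WT. At bud ccnb2 was the 1 gene called (1.20% of the 83, against 0.359% of all genes tested), and at 6-somites ccnb2 and mad2l1 were called (2.41%, against 0.474%). Libraries did not overlap with WT in counts close to those of all genes. At bud 17 genes were higher (20.5%, against 14.2%) and 13 lower (15.7%, against 21.7%). At 6-somites 27 were higher (32.5%, against 31.2%) and 23 lower (27.7%, against 25.8%).

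ccnb2 (ENSDARG00000036180) encodes a B-type cyclin that binds cdk1. It was at 15.7 and 16.3 RPKM in WT at bud, 22.7 and 23.8 in Gata5 morphants, 12.2 and 12.2 in Gata6 morphants and 18.7 and 20.2 in Gata5/6 morphants. Its 6-somites libraries were at 11.2 and 10.9 RPKM in WT, 17.02 and 18.2 in Gata5 morphants, 9.43 and 9.84 in Gata6 morphants and 18.3 and 17.7 in Gata5/6 morphants. At both stages the order was therefore Gata6 morphants, WT, then Gata5 and Gata5/6 morphants, with no overlap between WT and any morphant group. ccnb2 rose in Gata5 morphants at bud (log2 change 0.51 ± 0.09 (SE), adjusted p = 0.032), in Gata5 morphants at 6-somites (log2 change 0.63 ± 0.09 (SE), adjusted p = 0.014) and in Gata5/6 morphants at 6-somites (log2 change 0.66 ± 0.09 (SE), adjusted p = 0.0023). The bud call was lost when bud libraries were fitted by themselves (adjusted p = 0.78). The 6-somites call in Gata5/6 morphants held without any 1 of its 4 libraries, and the other calls were lost without any 1 of theirs, with adjusted p from 0.084 to 0.14 at bud and from 0.12 to 0.17 at 6-somites.

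mad2l1 (ENSDARG00000004713) encodes Mad2, which inhibits the anaphase-promoting complex while kinetochores are unattached. It was at 91.2 and 88.1 RPKM in WT at bud, 119 and 122 in Gata5 morphants, 75.97 and 61.7 in Gata6 morphants and 117 and 109 in Gata5/6 morphants. At 6-somites it was at 66.8 and 65.8 RPKM in WT, 101 and 98.2 in Gata5 morphants, 62.6 and 60.6 in Gata6 morphants and 98.9 and 91.1 in Gata5/6 morphants. The order of the groups was that of ccnb2. mad2l1 rose at 6-somites in Gata5 morphants (log2 change 0.58 ± 0.11 (SE), adjusted p = 0.041) and in Gata5/6 morphants (log2 change 0.51 ± 0.11 (SE), adjusted p = 0.022), and both calls were lost without any 1 of their libraries. At bud the difference in Gata5 morphants missed the threshold (log2 change 0.42 ± 0.11 (SE), adjusted p = 0.15).

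gins4, a subunit of the GINS complex, was next at bud, with 18.1 and 11.1 RPKM in WT and 9.66 and 6.56 in Gata5 morphants (log2 change -0.76 ± 0.22 (SE), adjusted p = 0.23). The third gene at 6-somites was the cyclin gene ccnb3, at 8.42 and 9.15 RPKM in WT and 6.99 and 6.41 in Gata5 morphants (log2 change -0.34 ± 0.11 (SE), adjusted p = 0.23). It was thus lower where ccnb2 was higher. In the fit of the 6-somites libraries alone, 7 of the 83 genes were called higher in Gata5 morphants (8.43%, against 5.10% of all genes) and 4 lower (4.82%, against 3.36%). Besides ccnb2 and mad2l1 those higher were cdc6, mcm3, cenpe, bub1bb and cdk1, and those lower were ccnb3, pola1, rfc1 and the rrm2 row ENSDARG00000078069.

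In Gata5/6 morphants more of the genes lay below WT than above it at bud, and more lay above than below at 6-somites. At bud limma called none of the 83 (against 1.59% of all genes tested), and limma-voom on recovered reads also called none. By p below 0.05 before adjustment 4 were higher (4.82% of the 83 against 6.45% of all genes) and 10 lower (12.05% of the 83 against 8.11% of all genes). Both libraries lay below both WT libraries for 34 genes (41.0%, against 22.8% of all genes) and above for 6 (7.23%, against 17.7%). At 6-somites 2 genes, ccnb2 and mad2l1, were called higher (2.41%, against 1.78% of all genes) and 0 lower (against 2.02%). Both libraries lay above both WT libraries for 38 genes (45.8%, against 27.3%) and below for 12 (14.5%, against 33.1%). The median log2 change was -0.09 at bud and 0.10 at 6-somites, with -0.02 for all genes at each stage. The difference between the stages was not called for any gene: with limma's interaction term, 0 of 83 passed for each kind of morphant. The background was 0% of all genes tested for Gata5 morphants, 0.0203% for Gata6 morphants and 0.00678% for Gata5/6 morphants. With p under 0.05 before adjustment, the count was 1 gene for Gata5, 5 for Gata6 and 7 for Gata5/6. Over both directions, 3.09%, 7.92% and 8.72% of all genes had such a p, shares no lower than those of the 83. By direction, Gata5/6 morphants had 7 higher (8.43%, against 3.80% of all genes) and 0 lower (against 4.92%). Their median difference between stages was 0.195, against 0.003 for all genes. Gata6 morphants had 4 higher (4.82%, against 2.62%) and 1 lower (1.20%, against 5.30%). limma-voom called none.

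The genes with the smallest p in Gata5/6 morphants at bud were pcna, given above, and cdc25d and bub1ba. cdc25d was at 1.42 and 2.34 RPKM in WT at bud and 4.13 and 3.52 in Gata5/6 morphants (log2 change 0.76 ± 0.19 (SE), adjusted p = 0.080), and at 6-somites at 0.366 and 0.404 and 1.16 and 0.931 RPKM. It did not overlap WT at either stage. For bub1ba the log2 change at bud was -0.36 ± 0.11 (adjusted p = 0.14).

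**Figure D3:**
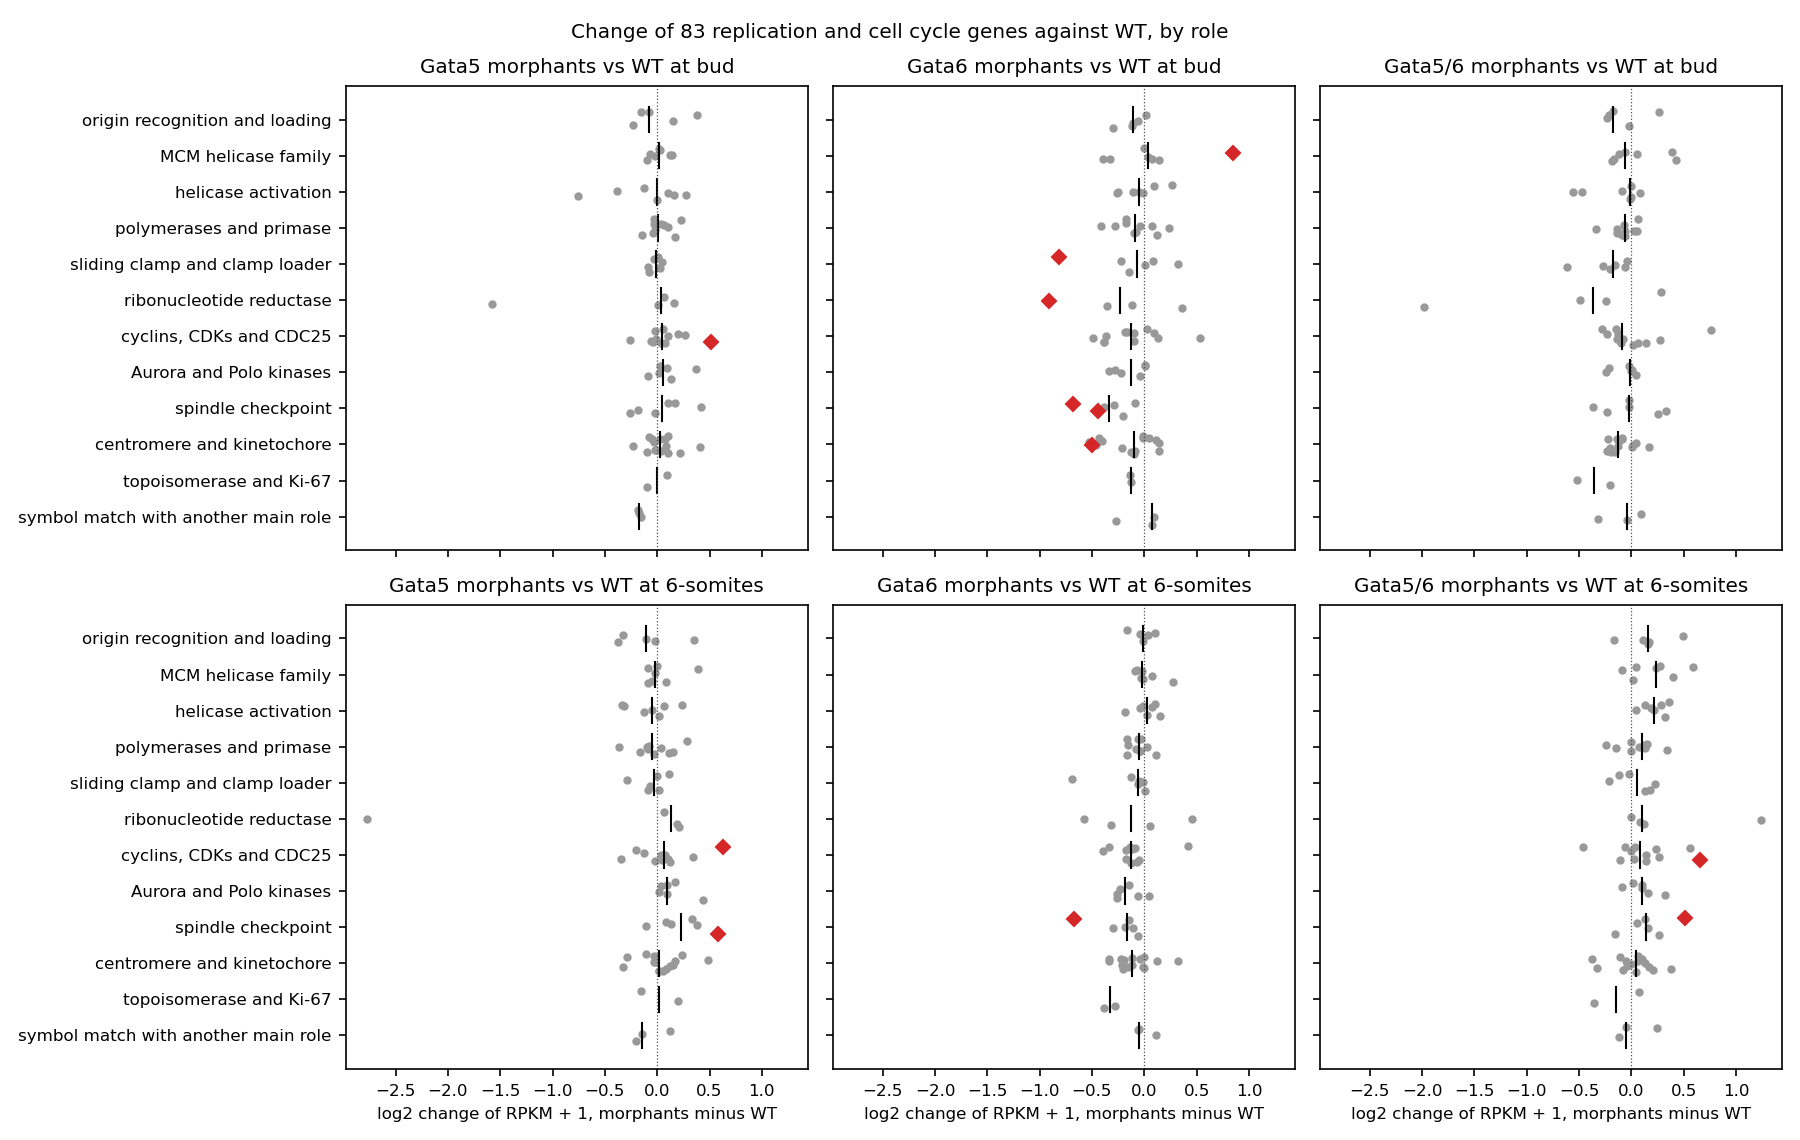
Log2 change of RPKM + 1 against WT (x axis) of the 83 genes in 12 roles (y axis), for each morphant group at each stage. Grey points are genes, red diamonds are genes called by limma, and black lines are role medians. Called genes lie below 0 in Gata6 morphants except the mcm6 row at 0.85, and above 0 in Gata5 and Gata5/6 morphants.

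At 6-somites, cdc6, mcm3, mcm4, mcm5, cdc45, gins3, mcm10 and prim1, which license origins or start replication forks, were called higher in Gata5/6 morphants than in WT once the spread was taken from the 6-somites libraries alone, and none of these 8 was called with the spread of all 16. Their log2 changes ran from 0.27 to 0.59. In the fit of that stage 16 of the 83 genes were called higher (19.3%, against 9.13% of all genes) and 3 lower (3.61%, against 11.0%). By role, 3 of 7 MCM genes, 3 of 7 helicase activation genes, 1 of 5 origin genes and 2 of 6 checkpoint genes were called higher and none lower, 1 of 10 polymerase and primase genes was called in each direction, and none of the 6 clamp and clamp loader genes was called. With the spread of all 16 libraries, the only calls among these 16 genes were ccnb2 and mad2l1.

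cdc6, which loads the helicase, was at 36.5 and 40.8 RPKM in WT at 6-somites, 48.9 and 50.2 in Gata5 morphants, 36.96 and 39.6 in Gata6 morphants and 56.1 and 53.4 in Gata5/6 morphants. At bud it was at 68.7 and 69.7 RPKM in Gata5 morphants, 39.9 and 46.3 in Gata6 morphants and 55.8 and 72.7 in Gata5/6 morphants, with WT given above. The Gata5/6 difference at 6-somites missed the threshold over all libraries (log2 change 0.49 ± 0.13 (SE), adjusted p = 0.059) and passed in the stage's own fit (adjusted p = 0.0055). mcm5 (ENSDARG00000019507), a helicase subunit, was at 164 and 161 RPKM in WT, 172 and 173 in Gata5 morphants, 162 and 161 in Gata6 morphants and 219 and 209 in Gata5/6 morphants (log2 change 0.40 ± 0.11 (SE), adjusted p = 0.074 over all libraries, and adjusted p = 0.0054 in the stage's own fit). At bud the mcm5 libraries of all 4 groups overlapped, at 180.0 and 161 RPKM in WT, 208 and 171 in Gata5 morphants, 175 and 165 in Gata6 morphants and 169 and 185 in Gata5/6 morphants. Both genes were highest in Gata5/6 morphants at 6-somites.

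The helicase subunit genes mcm3 and mcm4 were also highest in Gata5/6 morphants at that stage. mcm3 was at 14.8 and 16.1 RPKM in WT and 24.4 and 22.9 in Gata5/6 morphants (adjusted p = 0.0040 in the stage's own limma fit, 0.53 over all libraries). mcm4 was at 48.4 and 48.1 RPKM in WT and 60.3 and 56.5 in Gata5/6 morphants (0.025 and 0.42 in the same fits). Of the genes that turn the helicase on, cdc45 was at 13.3 and 13.6 RPKM in WT and 16.3 and 16.9 in Gata5/6 morphants (adjusted p = 0.020 in the stage's own fit). gins3 was at 16.5 and 16.9 and 22.01 and 21.3 RPKM (adjusted p = 0.014) and mcm10 at 12.9 and 13.1 and 17.5 and 15.5 RPKM (adjusted p = 0.032). All 7 genes of helicase activation had a log2 change above 0, from 0.04 to 0.36. prim1, the catalytic subunit of primase, was at 18.5 and 18.01 RPKM in WT and 24.5 and 22.3 in Gata5/6 morphants (adjusted p = 0.016), and cdk2, the kinase partner of cyclins E and A, at 24.9 and 27.4 and 31.5 and 31.6 RPKM (adjusted p = 0.032). Not all replication genes shared this direction. pola1, the catalytic subunit of polymerase alpha, was at 6.71 and 6.42 RPKM in WT and 5.36 and 5.41 in Gata5/6 morphants (adjusted p = 0.045). Also lower in that fit were ccnd2 (ENSDARG00000051748), at 9.33 and 8.56 and 6.06 and 6.37 RPKM (adjusted p = 0.019), and mki67, at 136 and 140.3 and 99.3 and 116 RPKM (adjusted p = 0.030).

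**Figure D4:**
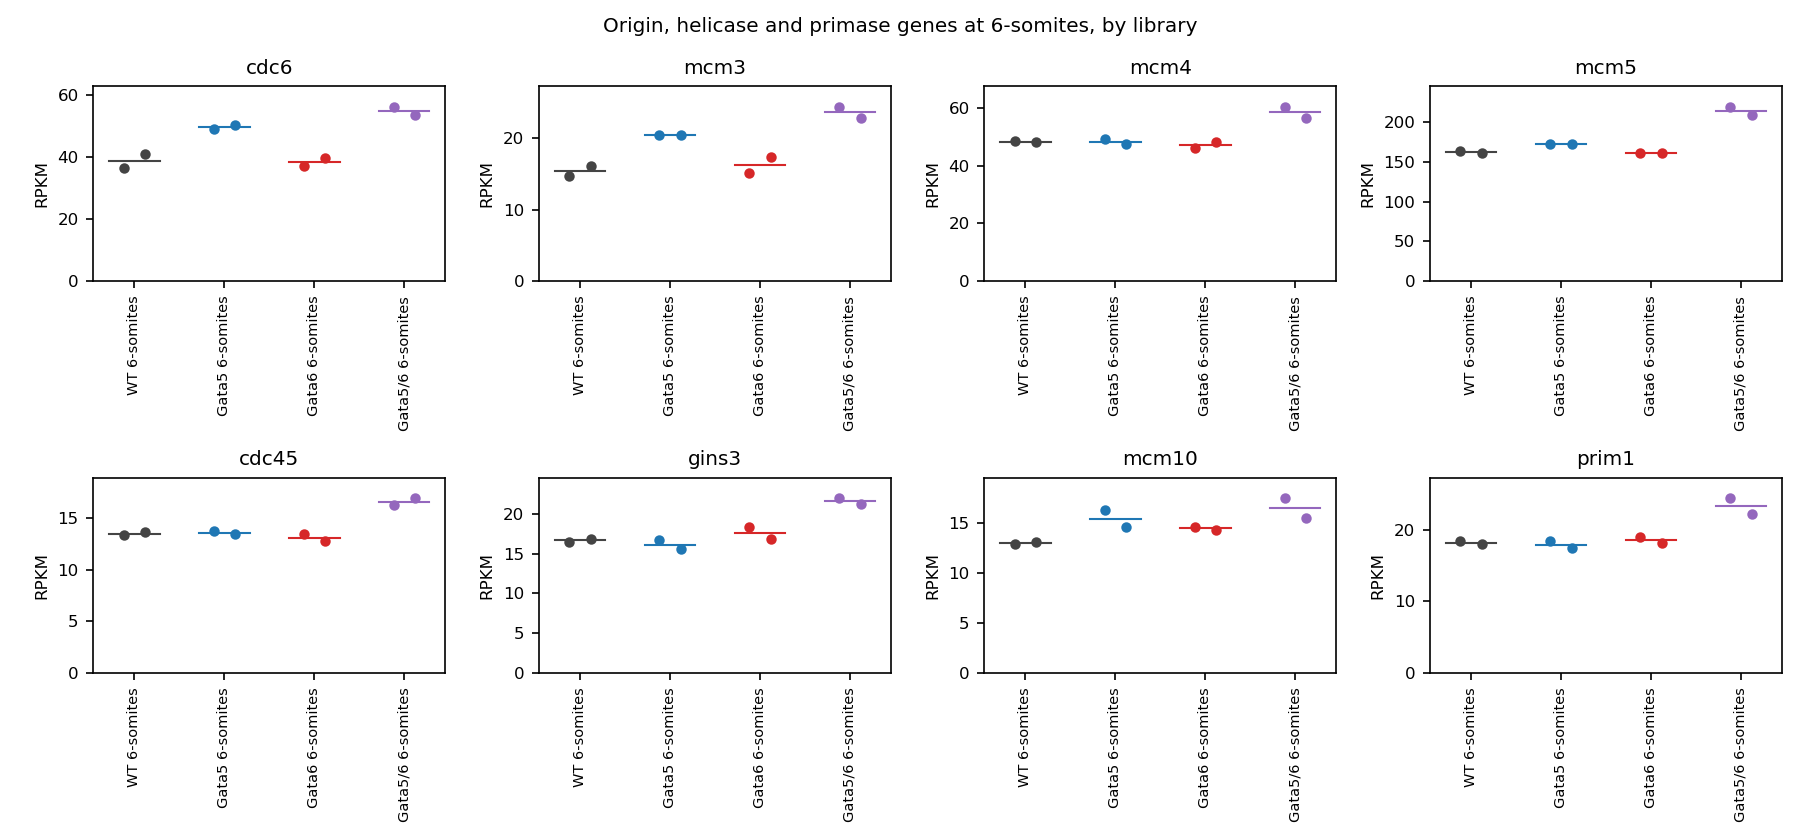
RPKM at 6-somites (y axis, linear from 0) of 8 genes that license origins, form or activate the helicase or prime DNA, by group (x axis). Points are the 2 libraries of a group and lines are means. The 8 were chosen because the fit of the 6-somites libraries alone called them higher in Gata5/6 morphants than in WT, so their place above WT follows from that choice. Other genes of these roles had log2 changes down to -0.24 (polymerases and primase), -0.17 (origin genes) and -0.09 (MCM genes).

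ccnb2, mad2l1 and cdc6 are also genes that fell from bud to 6-somites in WT, and both comparisons use the WT 6-somites libraries. At 6-somites the ccnb2 level of Gata5/6 morphants (18.3 and 17.7 RPKM) was above that of WT at bud (15.7 and 16.3), and for mad2l1 (98.9 and 91.1 against 91.2 and 88.1) and cdc6 (56.1 and 53.4 against 50.4 and 55.7) the values were close. Others of the 11 genes that fell in WT differed. ccna2 in Gata5/6 morphants at 6-somites (121 and 102 RPKM) overlapped WT at that stage (106 and 96.5), as did aurka, pole3 and the lower-level mcm6 row. ccnb1 and cdc25d lay between WT at 6-somites and WT at bud, and aurkaip1 was close to WT at bud. On the first principal component of all genes, which held 50.5% of the variance and separated the stages, Gata5/6 morphants at 6-somites scored 14.6 and 21.8, nearer to the bud libraries than WT at 34.7 and 38.4. Gata6 morphants, whose ccnb2 and mad2l1 lay below WT, were also nearer to bud, at 25.5 and 25.8. Gata5 morphants, whose ccnb2 and mad2l1 lay above WT, scored 34.9 and 37.4, within the range of WT. Maternal oocyte RNA, a list with 10 genes tested, summed to 695 and 497 RPKM in WT at 6-somites and 757 and 586 in Gata5/6 morphants, which overlap. None of the 10 was listed at 0. Within that list zp3b and cldnd were called higher in Gata5/6 morphants at 6-somites (20.0%, against 1.78% of all genes). cldnd was also called higher in Gata5 morphants at that stage (limma, adjusted p = 0.047). At bud zp3b was called higher in Gata6 and Gata5/6 morphants (adjusted p = 0.015 and 0.022, and 0.32 and 0.31 in the fit of bud libraries by themselves). In WT 6 of the 10 fell from bud to 6-somites (60.0%, against 9.56% of all genes). The part of developmental timing in these differences was not tested.

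Set against single morphants, a comparison added after the data were seen, Gata5/6 morphants had more ccnb2 and mad2l1 mRNA than Gata6 morphants at both stages. Against Gata6 morphants at bud 4 genes were called, all higher (4.82%, against 2.61% of all genes tested). They were mad2l1 (log2 change 0.71 ± 0.11 (SE), adjusted p = 0.0081), cdc6 (log2 change 0.56 ± 0.13 (SE), adjusted p = 0.045), ccnb2 (log2 change 0.64 ± 0.09 (SE), adjusted p = 0.0055) and cenpi (log2 change 0.48 ± 0.11 (SE), adjusted p = 0.044). Without Gata6 replicate 1 the count was 12, 7 higher and 5 lower (14.5%, against 14.4% of all genes). The count fell without either Gata5/6 replicate, and was 0 (against 0.0271% of all genes) when bud libraries were fitted by themselves. By p below 0.05 before adjustment that fit had 5 higher and 3 lower, and the share over all genes was not computed. In the fit of all libraries such a p was found for 16 higher (19.3% of the 83 against 8.51% of all genes) and 8 lower (9.64% against 10.7%). At 6-somites ccnb2 (log2 change 0.84 ± 0.09 (SE), adjusted p = 0.0016) and mad2l1 (log2 change 0.62 ± 0.11 (SE), adjusted p = 0.029) were called (2.41%, against 0.590%). The fit of the 6-somites libraries alone called 23 genes higher (27.7%, against 5.94% of all genes) and 0 lower (against 5.23%). By p below 0.05 before adjustment that fit had 35 higher and 4 lower, and the share over all genes was not computed. In the fit of all libraries such a p was found for 21 higher (25.3% against 6.45% of all genes) and 0 lower (against 5.98%). The 23 included 4 of 6 checkpoint genes, 4 of 12 cyclin, CDK and CDC25 genes and 3 of 7 MCM genes, and pcna, rrm1, aurkb, plk1 and top2a were among them. aurkb was at 60.05 and 54.1 RPKM in Gata6 morphants and 96.2 and 76.1 in Gata5/6 morphants (adjusted p = 0.023). Against Gata5 morphants, limma called 0 genes at bud (against 0.739% of all genes) and 0 at 6-somites (against 3.18%). limma-voom called none at either stage. With p under 0.05 before adjustment, at bud 3 were higher (3.61% of the 83 against 6.42% of all genes) and 11 lower (13.3% of the 83 against 5.65% of all genes). At 6-somites 10 were higher (12.05% of the 83 against 5.77% of all genes) and 1 lower (1.20% of the 83 against 12.2% of all genes). The fit of the 6-somites libraries alone called 13 higher in Gata5/6 than in Gata5 morphants (15.7%, against 7.57% of all genes) and 1, cdk1, lower (1.20%, against 12.9%). A missed threshold does not show that the groups are alike.

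The small subunit of ribonucleotide reductase, rrm2, had the largest spread between replicates of all these genes. It is carried by 2 rows. ENSDARG00000078069 was at 26.5 and 14.7 RPKM in WT at bud, 41.4 and 0.143 in Gata5 morphants, 23.4 and 9.78 in Gata6 morphants and 0.483 and 17.7 in Gata5/6 morphants. Its 6-somites libraries were at 5.61 and 7.87 RPKM in WT, 0.185 and 0.0582 in Gata5 morphants, 4.97 and 5.34 in Gata6 morphants and 18.2 and 15.96 in Gata5/6 morphants. Replicates of Gata5 morphants at bud thus differed by 289-fold. The lowest of its 16 values, in Gata5 morphants at 6-somites, rests on 2 reads. ENSDARG00000020711 was at 24.3 and 46.3 RPKM in WT at bud, 22.5 and 55.03 in Gata5 morphants, 20.3 and 46.9 in Gata6 morphants and 43.1 and 39.2 in Gata5/6 morphants. At 6-somites it was at 38.6 and 36.5, 44.7 and 41.3, 42.1 and 36.3 and 44.4 and 37.7 RPKM in the same order of groups. In all 4 groups at bud the replicate with less of the first row had more of the second, and the sum of both rows lay between 41.4 and 63.8 RPKM in all 16 libraries. Reads may be shared or split between these rows, so a change of either is uncertain. Neither row was called over all libraries, whereas the fit of the 6-somites libraries alone called the variable row lower in Gata5 morphants and higher in Gata5/6 morphants. The helicase gene mcm3 also had unlike replicates at bud. It was at 10.3 and 33.2 RPKM in WT, 16.5 and 22.1 in Gata5 morphants, 10.49 and 18.4 in Gata6 morphants and 19.8 and 30.99 in Gata5/6 morphants. Replicate 2 was the higher in all 4 groups.

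**Figure D5:**
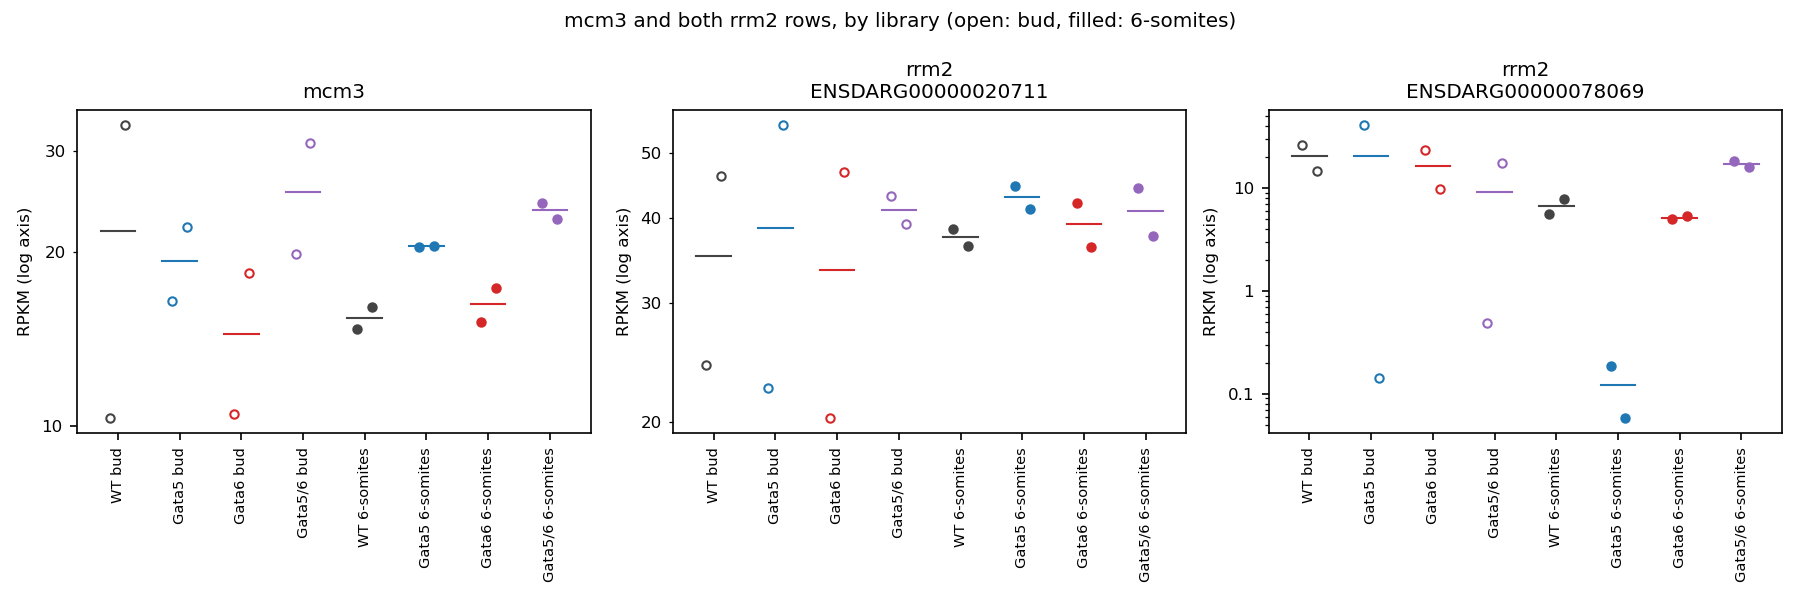
RPKM in each of the 16 libraries (y axis, logarithmic) of mcm3 and of both rows named rrm2, by group (x axis). Points are libraries, open at bud and filled at 6-somites, and lines are group means. The rrm2 row ENSDARG00000078069 spans 0.0582 to 41.4 RPKM, while replicates at 6-somites lie close together for mcm3 and the other row.

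The remaining genes that were highest in their role showed no call against WT over all libraries. In the order WT, Gata5, Gata6 and Gata5/6 morphants, mki67 was at 145 and 132, 108 and 155, 101 and 156 and 82.6 and 112 RPKM at bud, with replicates apart in every morphant group. ccna2 was at 133 and 143 RPKM in WT, 111 and 99.2 in Gata6 morphants and 127 and 132 in Gata5/6 morphants at bud, and the Gata6 libraries were the lowest (log2 change -0.39 ± 0.12 (SE), adjusted p = 0.11). bub3 was at 102 and 81.5 RPKM in WT at 6-somites and 121 and 118 in Gata5 morphants, which did not overlap (log2 change 0.38 ± 0.14 (SE), adjusted p = 0.32). aurkb was at 73.02 and 64.2 RPKM in WT and 93.4 and 92.3 in Gata5 morphants at 6-somites (log2 change 0.43 ± 0.17 (SE), adjusted p = 0.34). The motor gene cenpe was at 27.1 and 24.1 RPKM in WT and 37.7 and 34.9 in Gata5 morphants at that stage (log2 change 0.49 ± 0.20 (SE), adjusted p = 0.36). bub3, aurkb and cenpe were each highest, by group mean, in Gata5 morphants among the 6-somites groups. pole3 was at 50.7 and 46.3 RPKM in WT, 58.5 and 47.2 in Gata6 morphants and 59.2 and 48.7 in Gata5/6 morphants at 6-somites, and gins1 at 23.3 and 25.7, 24.4 and 24.2 and 27.6 and 29.6 RPKM. aurkaip1 was at 32.3 and 31.95 RPKM in WT and 40.1 and 36.7 in Gata5/6 morphants at 6-somites.

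Other replication and cell cycle genes, a list of 94 symbols outside the rule with 67 genes tested, gave few calls against WT. In Gata6 morphants at bud 3 of the 67 fell (4.48%, against 0.779% of all genes): ube2s, a ubiquitin-conjugating enzyme of the anaphase-promoting complex (log2 change -0.84 ± 0.13 (SE), adjusted p = 0.015), nusap1, a spindle microtubule protein (log2 change -0.69 ± 0.13 (SE), adjusted p = 0.029), and mastl, the Greatwall kinase (log2 change -0.43 ± 0.09 (SE), adjusted p = 0.034). All 3 calls were lost when bud libraries were fitted by themselves, with adjusted p of 0.32 for ube2s, 0.37 for nusap1 and 0.47 for mastl. nusap1 was at 78.1 and 76.8 RPKM in WT at bud, 80.1 and 88.9 in Gata5 morphants, 56.7 and 40.1 in Gata6 morphants and 78.4 and 78.7 in Gata5/6 morphants, so Gata6 morphants stood alone below the rest. tipin, of the fork protection complex, was at 22.7 and 22.2 RPKM in WT at bud, 31.9 and 37.7 in Gata5 morphants, 24.02 and 20.2 in Gata6 morphants and 31.9 and 29.5 in Gata5/6 morphants. Its 6-somites libraries were at 22.5 and 24.02, 34.1 and 34.9, 24.9 and 24.4 and 36.5 and 34.8 RPKM in the same order. tipin thus stood higher in Gata5 and Gata5/6 morphants than in WT at both stages, as ccnb2 did, and was called in Gata5 morphants at bud (log2 change 0.60 ± 0.11 (SE), adjusted p = 0.042, and 0.78 in the fit of bud libraries) and in Gata5/6 morphants at 6-somites (log2 change 0.59 ± 0.11 (SE), adjusted p = 0.012). wee1, the kinase that holds cdk1 inactive, was called higher in Gata5/6 morphants at 6-somites (log2 change 0.44 ± 0.09 (SE), adjusted p = 0.026). It was at 31.6 and 35.3 RPKM in WT at that stage, 32.9 and 32.7 in Gata5 morphants, 42.7 and 44.2 in Gata6 morphants and 44.7 and 46.5 in Gata5/6 morphants. Gata6 morphants thus also lay above WT. tipin and wee1 were the 2 of the 67 called in Gata5/6 morphants at 6-somites (2.99%, against 1.78% of all genes called higher). None of the 67 was called in Gata5/6 morphants at bud or in Gata5 or Gata6 morphants at 6-somites, where 2, 10 and 3 were higher and 12, 1 and 4 lower by p below 0.05 before adjustment. These are 20.9%, 16.4% and 10.4% of the 67, against 14.6%, 11.1% and 9.08% of all genes. From bud to 6-somites in WT, 2 of the 67 rose (2.99%, against 20.3% of all genes) and 17 fell (25.4%, against 9.56%), and the median log2 change was -0.11, against 0.08 for all genes.

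The genes whose log2 levels followed pcna most closely over the 16 libraries were rexo2 (Pearson's r = 0.948), med17 (0.928), mea1 (0.922), rrm1 (0.916) and bub1ba (0.915). These values describe 16 libraries that fall into 8 groups of 2, and share those groups.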

How the data were processed

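RPKM per gene was computed and deposited by the authors, 1 value per library and not pooled, from single 36-base reads of polyA RNA, with genome build Zv9 per the submitters' processing notes. Which aligner, counter and annotation release were applied is not given in the sources used here. No sequences and no gene coordinates of that build were used here. Symbols were assigned by gene identifier for 19258 of 27257 identifiers, and 11 of the 99 identifiers of the rule, each with a symbol of its own, had no row and were not analysed here. Marker symbols tbxta, sox17 and sox32 were not matched.

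No gene is listed at 0. The steps between RPKM values gave back whole reads and gene lengths, within 0.01 reads for 99.66% of genes, and from these the depths. The lowest number of reads behind a value of the 83 genes was 2, and the median over these genes of their lowest was 719. Counting error is thus small for most, and differences between embryo pools come on top of it.

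The design foresaw a count model if counts were deposited. As RPKM values were, limma 3.58.1 with trend (R 4.3.3) was fitted to log2(RPKM + 1) for genes that reached 1 RPKM in 2 libraries or more, with 8 group means, 8 residual degrees of freedom and no replicate block. Fold changes on this scale understate the change of low genes. Tests were two-sided, Benjamini-Hochberg adjusted over 14754 genes at bud, 14755 at 6-somites and 14751 across stages, and called under 0.05. Nothing in the labels says that replicates are separate clutches, so p-values measure the spread between these samples, which may be technical. The fit was first tested on simulated data.

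Genes named with values for each library are those called against WT and, among genes called between stages in WT, the 5 largest rises and falls. Also named are the highest per role, those sharing a symbol or a root symbol, and, where fewer than 3 were called, the 3 with the smallest p. Others named were chosen after their values were seen. The genes, lists and roles were chosen with earlier results of these data known. Alternatives were a pseudocount of 0.1, a filter of 5 RPKM or none, median-of-ratios scaling, limma-voom on recovered reads, a replicate block, libraries of a stage alone, and leaving out each library.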

Additional observations from a re-analysis of the deposited data

How the results depend on the processing

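Counts of the 83 genes called are compared here with those given above. With the libraries of each stage alone, which changes the spread, 0 genes were called in Gata5 and in Gata6 morphants at bud and 0 in Gata5/6 against Gata6 morphants at bud. At 6-somites this fit called 11 in Gata5 (13.3%, against 8.46% of all genes), 6 in Gata6 (7.23%, against 6.28%) and 19 in Gata5/6 morphants (22.9%, against 20.2%). Over both directions the shares in Gata6 and Gata5/6 morphants were thus near those of all genes. The same fit called 14 in Gata5/6 against Gata5 (16.9%, against 20.5%) and 23 in Gata5/6 against Gata6 morphants (27.7%, against 11.2%). Without a filter, 3 were called in Gata6 morphants at bud (3.61%, against 0.725% of all genes). In Gata5/6 against Gata6 morphants at bud 2 were called (2.41%, against 1.02%). With a filter of 5 RPKM, 0 were called in Gata6 morphants at 6-somites, since bub1ba did not pass it. With a replicate block, the counts at 6-somites were 0 in Gata6 (against 0.258% of all genes) and 4 in Gata5/6 morphants (4.82%, against 4.89%). For Gata5/6 against Gata5 morphants at 6-somites the count was 1 (1.20%, against 4.09%). The correlation of same-numbered libraries within a stage was 0.189 to 0.557, but the labels do not say what a number shares. The block changed no other count by more than 1.5-fold.

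Without both bud libraries highest in mdm2, chosen after seeing the data, the counts at bud were 2 in Gata5 and 20 in Gata6 morphants, and 13 in Gata5/6 against Gata6 morphants. At 6-somites they were 3 in Gata6 and 6 in Gata5/6 morphants, 3 in Gata5/6 against Gata5 and 9 in Gata5/6 against Gata6 morphants, and 1 gene was called for a difference between stages. Over all genes the share called also rose in each of these comparisons. In Gata5/6 morphants at 6-somites, against WT and against Gata5 morphants, the share of the replication and cell cycle genes called was below that of all genes. The same held for the difference between stages, where the call was in Gata6 morphants. In the other comparisons named here their share was above that of all genes. The cause was not tested.

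With each library left out in turn, the counts at bud were 0 to 0 in Gata5, 1 to 19 in Gata6 and 0 to 1 in Gata5/6 morphants, the 1 without Gata5/6 replicate 2. At 6-somites they were 0 to 0 in Gata5, 0 to 0 in Gata6 and 1 to 1 in Gata5/6 morphants. They were 10 to 21 between stages in WT and 0 to 1 for the difference between stages, the 1 without Gata6 bud replicate 1. For Gata5/6 against Gata6 morphants they were 2 to 12 at bud and 1 to 1 at 6-somites, and against Gata5 morphants 0 to 1 at bud, the 1 without Gata5/6 replicate 2. An arm left with 1 library is assumed to vary like the other groups. The share called over all genes also moved between these settings, and between stages in WT it fell with each WT library left out. These counts alone therefore do not show a change particular to the replication and cell cycle genes. For single called genes, 214 values were recomputed for 18 results: 154 kept the call, 60 lost it and 0 changed direction.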
